A study of Mus musculus with 2 samples.

Results

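The miR-148/miR-152 family of the mouse consists of the strands of 3 hairpin precursors, mir-148a, mir-148b and mir-152. Its members were taken by name, as every listed arm of these 3 hairpins, which gave 6 of the 717 mature miRNAs in the table. The 6 are the guide strands mmu-miR-148a-3p, mmu-miR-148b-3p and mmu-miR-152-3p and the passenger strands mmu-miR-148a-5p, mmu-miR-148b-5p and mmu-miR-152-5p. Small RNA was sequenced from 1 library of tumor-associated macrophages (TAMs) and 1 library of spleen macrophages (SMs), both from BALB/c mice. TAMs came from tumors of 4T1 cells, a mouse mammary carcinoma line, grown in the mammary fat pad of female mice injected at 8 weeks of age and collected after 3 weeks. SMs came from the spleen of naïve mice without a tumor, whose age at collection was not given in the sources used here, and served as the control. No engineered allele and no drug is named for either group. TAMs were pulled from the digested tumor with magnetic beads against CD11b, an integrin that neutrophils, monocytes and NK cells carry as well. The authors used flow cytometry to check purity and viability, by CD11b and a dead-cell dye. The percentage was not given in the sources used here. How SMs were selected and how many mice went into each library were not given in the sources used here.

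A miRNA hairpin is cut to a short duplex, of which 1 strand, the guide, is kept by an Argonaute protein and the other, the passenger, is mostly degraded. The guide finds its targets mainly through its seed, bases 2 to 8, so guides with the same seed can act on the same messenger RNAs and are usefully counted as 1 pool. The miR-148/miR-152 family is known for repressing Dnmt1, the enzyme that maintains DNA methylation. In mouse dendritic cells it restrains the response to Toll-like receptor ligands through the kinase CaMKIIα. In mouse B cells miR-148a weakens central tolerance through Gadd45a and Bcl2l11, among other targets, and in mouse liver it lowers Abca1, an export pump of cholesterol.

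The mature strands are shown first because the comparison turns on which of them share a seed. All 6 matched RefSeq entries of GRCm38.p6, and each was identical to the sequence in the deposited table. They are written 5′ to 3′ with the seed in capitals:
miR-148a-3p: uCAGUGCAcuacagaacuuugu
miR-148b-3p: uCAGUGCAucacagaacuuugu
miR-152-3p: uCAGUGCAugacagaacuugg
miR-148a-5p: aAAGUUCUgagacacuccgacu
miR-148b-5p: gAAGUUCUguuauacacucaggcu
miR-152-5p: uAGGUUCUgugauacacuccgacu

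The 3 guides shared the seed CAGUGCA, and no other of the 717 listed miRNAs carried it. Among the passengers, those of mir-148a and mir-148b shared a different seed, AAGUUCU, and that of mir-152 had AGGUUCU. Outside the seed the guides were also alike. Counted from 1 at the 5′ end, miR-148b-3p differed from miR-148a-3p by C9U and U10C, 2 of 22 bases. miR-152-3p differed from miR-148a-3p by C9U, U10G and U20G over the 21 bases compared, and from miR-148b-3p by C10G and U20G. The authors allowed read ends to vary by 2 bases, and how reads matching more than 1 guide were assigned was not given in the sources used here. Elsewhere in the table the 3p strands of miR-297a, miR-297b and miR-297c were each listed with the same 33 counts in TAMs and 42 counts in SMs. Whether those strands differ in sequence was not examined, so this does not show how reads of unlike guides were assigned. The 3 miR-148/miR-152 guides all differ from each other at base 10, so a full-length read without mismatches fits only 1 of them. Any read that still matched more than 1 guide could be split between guides or counted for each. That would touch the guides' own counts, their shares and, in the latter case, their sum. How many reads this concerns was not tested.

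The hairpins are shown because the balance of their arms is compared. They come from RefSeq on GRCm38.p6, in the sense of the transcript, with the 5p arm and then the 3p arm in capitals:
Mir148a: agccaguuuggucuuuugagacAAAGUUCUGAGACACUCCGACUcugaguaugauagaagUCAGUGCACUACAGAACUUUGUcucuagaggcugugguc
Mir148b: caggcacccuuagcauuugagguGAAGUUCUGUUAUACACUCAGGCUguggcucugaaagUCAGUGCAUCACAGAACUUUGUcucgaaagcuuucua
Mir152: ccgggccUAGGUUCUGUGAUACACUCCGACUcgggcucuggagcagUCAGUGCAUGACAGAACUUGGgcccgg

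Mir148a lies on the minus strand at chr6:51269812-51269910, outside any other gene of GENCODE M21, and the nearest protein-coding gene, Nfe2l3, is 163 kb away. Mir148b lies on the plus strand at chr15:103285125-103285221, in an intron of Copz1 in the same direction. Mir152 lies on the plus strand at chr11:96850393-96850465, in an intron of Copz2, also in the same direction. Copz1 and Copz2 encode paralogous zeta subunits of the coatomer that coats transport vesicles, so mir-148b and mir-152 sit in paralogous hosts while mir-148a stands alone.

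A guide with this seed pairs with TGCACTG in the 3′ UTR of a target. The 7 letters were searched on the sense strand in the longest 3′ UTR of each protein-coding gene of GENCODE M21, and 2672 of 21005 genes (12.7%) had them. They overlap by 6 letters the site of the miR-130/miR-301 family, whose seed is AGUGCAA. Sites of known targets, each followed by A, are shown with the match in capitals:
Dnmt1, chr9:20907488-20907513, minus strand: acccagagccccacgTGCACTGatgt
Gadd45a, chr6:67035617-67035642, minus strand: ataactgaaccaaatTGCACTGaagt

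Both genes had 1 match. Dnmt1 has a short 3′ UTR of 312 bases, and among 1692 genes whose 3′ UTR was within 20% of that length 3.13% had a match. For Gadd45a, with 563 bases, that share was 6.63% of 2067 genes. Abca1 had 2 matches and Bcl2l11 had 3, in longer 3′ UTRs of 3156 and 4218 bases, and among genes of like 3′ UTR length a match was common, with 24.9% of 2185 genes for Abca1 and 32.4% of 1420 genes for Bcl2l11. Of the matches in Bcl2l11, 1 was also followed by A, and of those in Abca1, 0 were. Over all 21005 genes, 755 (3.59%) had a match followed by A. A match describes the letters only, and no messenger RNA was measured in these libraries.

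The authors gave expression as a read count and as TPM, the count scaled to a fixed library size. The total behind this scaling was 13324721 reads in the library of TAMs, and that of SMs was 15422872 reads. Of these totals, the listed miRNAs made up 55.0% in TAMs and 65.5% in SMs. A level of 3 reads corresponded to 0.225 TPM in TAMs and 0.195 TPM in SMs. With 1 library per group there was no replicate, so no p-value is given. Each interval below is an exact 95% interval that covers counting error alone, and reads copied from 1 molecule by PCR are not independent, so even that error may be understated.

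The guide strands of mir-148a and mir-148b were lower in TAMs than in SMs, and that of mir-152 was at about the same level in both. miR-148a-3p, the most abundant member, had 30768 counts in TAMs and 107362 counts in SMs. This was 2309 TPM (2283 to 2335) in TAMs against 6961 TPM (6920 to 7003) in SMs, 3.02-fold lower in TAMs (95% interval 2.98 to 3.05). It ranked 26th of all listed miRNAs in TAMs and 17th in SMs. In RNA from a whole cell preparation, fewer cells of a type and less RNA per cell cannot be told apart.

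miR-148b-3p had 22177 counts in TAMs and 44301 counts in SMs. Its level was 1664 TPM in TAMs and 2872 TPM in SMs, 1.73-fold lower in TAMs (1.70 to 1.75). By rank it hardly moved, from 33rd in SMs to 32nd in TAMs. miR-148a-3p thus lay well above miR-148b-3p in SMs, and the 2 lay closer together in TAMs.

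miR-152-3p was far less abundant, with 1194 counts in TAMs and 1441 counts in SMs. Its level of 89.6 TPM in TAMs was close to the 93.4 TPM of SMs. The interval of the ratio, which was 0.959, ran from 0.888 to 1.04 and held 1. Under other scalings of the libraries that ratio ran from 1.01 to 1.35, so no direction can be given for miR-152-3p.

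**Figure D1:**
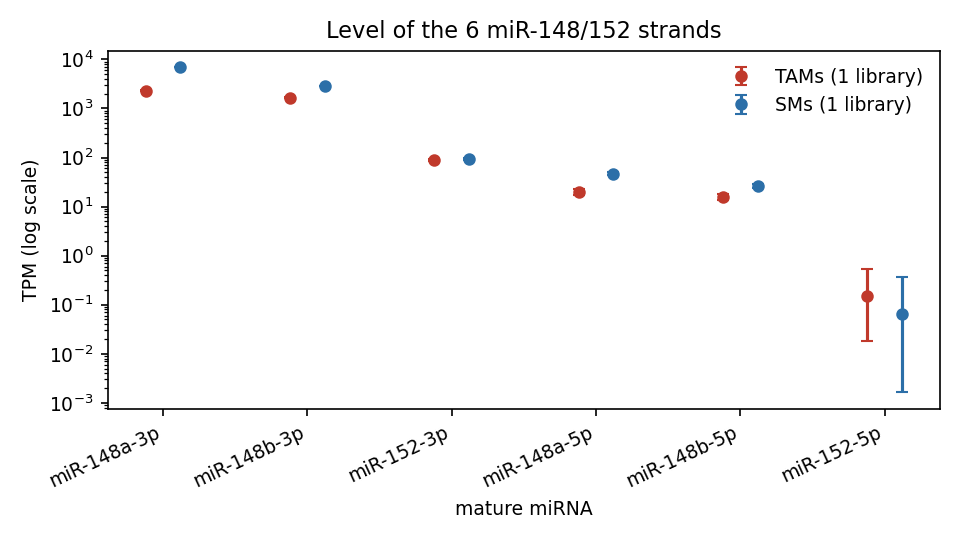
Level of each of the 6 strands in TPM on a log axis, with TAMs in red and SMs in blue, 1 library each; the bars are exact 95% counting intervals. The levels run from 6961 TPM for miR-148a-3p in SMs down to miR-152-5p, which rests on 2 counts in TAMs and 1 in SMs.

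The passenger strands were low in both libraries. miR-148a-5p had 266 counts in TAMs and 716 in SMs, or 19.96 TPM against 46.4 TPM, a ratio of 0.430 (0.372 to 0.496). miR-148b-5p had 208 counts in TAMs and 413 in SMs, or 15.6 TPM against 26.8 TPM, a ratio of 0.583 (0.491 to 0.690). Each passenger was thus lower in TAMs, as its own guide was. miR-152-5p had 2 counts in TAMs and 1 in SMs, below the level of 3 reads in both, and its ratio of 2.31 had an interval from 0.121 to 137 that carries no direction.

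The members were then read against all miRNAs of at least 10 TPM in either library, of which there were 264, on log2(TPM + 1), a scale that slightly understates the difference of low miRNAs. Of the 6 members, 5 reached that level and miR-152-5p did not. Among the 5, miR-148a-3p and miR-148a-5p were lower in TAMs by 2-fold or more, 0 were higher by as much, and 3 were neither. Over all 264 miRNAs, 32.6% were lower by 2-fold or more and 24.2% were higher. A count of 2 in 5 is near that background, and both strands come from 1 hairpin, so the count says nothing particular about the family. The median log2 ratio was −0.79 over the 5 members and −0.36 over the 264 miRNAs. Relative to the latter median, miR-148a-3p stood at −1.24, miR-148b-3p at −0.43 and miR-152-3p at 0.30 on the log2 scale. From the lowest ratio up, miR-148a-3p was 44th, miR-148b-3p 99th and miR-152-3p 153rd of the 264.

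These ratios depend on the total chosen. With the sum of the listed miRNA counts without the 10 most abundant of either library as the total, 62.1% of the miRNAs that differed by 2-fold or more were higher in TAMs, against 42.7% with the authors' total. The median log2 ratio over the 264 miRNAs moved with it, from −0.36 to 0.13. Under that scaling miR-148a-3p was still lower by over 2-fold, with a ratio of 0.467, while miR-148a-5p, at 0.606, was no longer past 2-fold.

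**Figure D2:**
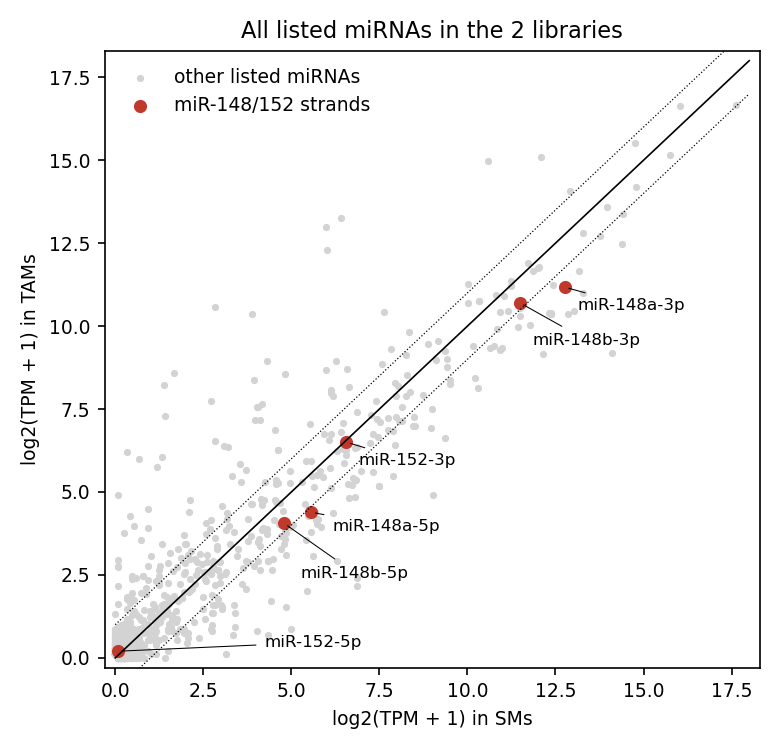
log2(TPM + 1) of each of the 717 listed miRNAs in SMs (x axis) and TAMs (y axis), 1 library each, with the 6 miR-148/miR-152 strands in red; the solid line marks equal levels and the dotted lines 2-fold. miR-148a-3p and miR-148a-5p lie below the lower dotted line, and miR-152-3p lies on the line of equal levels.

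Summed over the 3 guides, the seed pool held 54139 counts in TAMs and 153104 counts in SMs. The pool made up 0.738% of the miRNA reads of TAMs and 1.51% of those of SMs. In TPM it was 4063 in TAMs and 9927 in SMs, 2.44-fold lower in TAMs (2.42 to 2.47). The difference of 5864 TPM was made up of 4652 TPM from miR-148a-3p, which is 79.3% of it, 1208 TPM from miR-148b-3p and 3.83 TPM from miR-152-3p. Without miR-148a-3p the other guides summed to a ratio of 0.591 (0.582 to 0.601), which is not past 2-fold. Scaled to the listed counts less the 10 most abundant miRNAs of either library, the ratio of the whole pool was 0.577 and was not past 2-fold either.

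The makeup of the pool does not depend on any library total. miR-148a-3p made up 70.1% of the pool in SMs (exact interval 69.9 to 70.3%) and 56.8% in TAMs (56.4 to 57.3%). miR-148b-3p made up 28.9% in SMs (28.7 to 29.2%) and 41.0% in TAMs (40.5 to 41.4%). miR-152-3p made up 0.941% in SMs (0.893 to 0.991%) and 2.21% in TAMs (2.08 to 2.33%). The order of the 3 guides was the same in both libraries, but the pool of TAMs was less dominated by miR-148a-3p.

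As ratios within a library, miR-148a-3p was counted 2.42 times as often as miR-148b-3p in SMs (2.40 to 2.45) and 1.39 times as often in TAMs (1.36 to 1.41). Against miR-152-3p it was counted 74.5 times as often in SMs (70.7 to 78.5) and 25.8 times as often in TAMs (24.3 to 27.3). miR-148b-3p was counted 30.7 times as often as miR-152-3p in SMs (29.2 to 32.4) and 18.6 times as often in TAMs (17.5 to 19.7). For all 3 pairs the intervals of TAMs and SMs did not overlap, which compares the reads of these libraries and not the conditions.

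**Figure D3:**
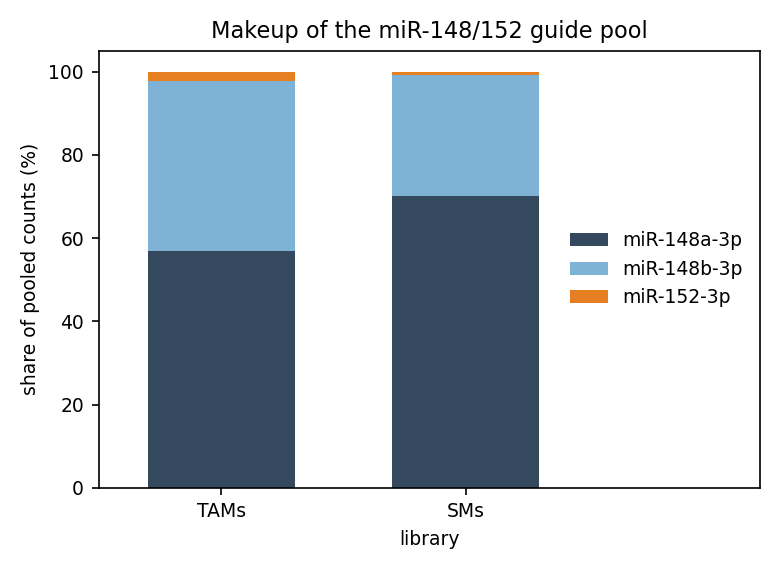
Share of the pooled guide counts, in percent, taken by miR-148a-3p, miR-148b-3p and miR-152-3p in TAMs and in SMs, 1 library each. The share of miR-148a-3p is 70.1% in SMs and 56.8% in TAMs, and those of the other guides are larger in TAMs.

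Guide and passenger counts of a hairpin give its arm balance, which is also free of the library total. The 5p arm of mir-148a made up 0.857% of both arms in TAMs (0.758 to 0.966%) and 0.663% in SMs (0.615 to 0.713%). The intervals did not overlap, and the difference was 0.195 percentage points. The 5p arm of mir-148b made up 0.929% in TAMs (0.808 to 1.06%) and 0.924% in SMs (0.837 to 1.02%), a difference within counting error. For mir-152 the share was 0.167% in TAMs (0.0203 to 0.603%) and 0.0694% in SMs (0.00176 to 0.386%), from which no difference was detectable at this depth. The 3p arm was therefore the dominant product of all 3 hairpins in both libraries.

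These balances were set beside the 141 hairpins that had both arms listed and at least 100 counts over both arms in each library. The arm with fewer counts over both libraries together, called the less abundant arm, made up a median of 2.02% in TAMs and 1.98% in SMs over these hairpins. The share of mir-148a was larger than that of 57 of the 141 hairpins in TAMs and of 43 in SMs. The median difference between the libraries was 0.579 percentage points in size, and 48 hairpins differed by less than mir-148a. The medians depend on the count required. Among the 80 hairpins of at least 1000 counts they were 0.815% in TAMs and 0.945% in SMs, with a median difference of 0.200 percentage points. The share of mir-148a was larger than that of 42 of these 80 in TAMs and of 35 in SMs, and 39 differed by less than mir-148a.

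**Figure D4:**
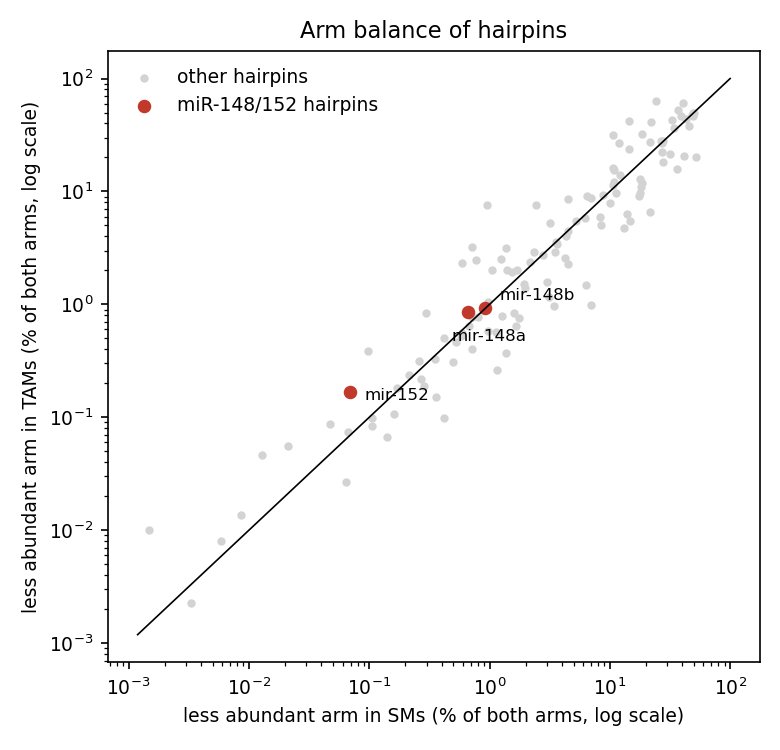
Share of the less abundant arm in percent of both arms, in SMs (x axis) and TAMs (y axis), both on log axes, for the 125 of 141 hairpins with a count of each arm in each library; 16 hairpins with an arm at 0 are not drawn. The hairpins mir-148a and mir-148b lie at 0.663 to 0.929% near the line of equal shares, and mir-152 rests on 3 passenger counts in all.

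The pool was compared with 3 other families of paralogous guides. The miR-26 family restrains growth and cell cycle genes, the miR-29 family is known for repressing the de novo methyltransferases Dnmt3a and Dnmt3b beside collagen genes, and the miR-130/miR-301 family was taken for its seed. Bases 2 to 7 of its 4 members, AGUGCA, are bases 3 to 8 of the miR-148/miR-152 guides, so both families read 6 letters in common at an offset of a single base. For comparison with the guides above, RefSeq gives these members, again with the seed in capitals, and miR-301b-3p is named only:
miR-130a-3p: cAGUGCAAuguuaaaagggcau
miR-130b-3p: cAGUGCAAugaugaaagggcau
miR-301a-3p: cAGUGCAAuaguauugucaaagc

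The miR-26 guides summed to 9176 TPM in TAMs and 19595 TPM in SMs, and the interval around their ratio of 0.468 was 0.465 to 0.471. The miR-29 guides summed to 1462 TPM against 2610 TPM, with a ratio of 0.560 (0.551 to 0.570). The miR-130/miR-301 guides summed to 940 TPM against 924 TPM, and their ratio of 1.02 had an interval of 0.993 to 1.04. The miR-148/miR-152 pool, at 0.409 (0.405 to 0.413), had the lowest ratio of the 4 pools, and its interval did not overlap theirs. All 4 ratios carry the same library totals, so their order does not depend on the scaling. With 1 library each, the differences between families have no replicate check. No other family was pooled, so the order holds among these 4 only. Of single guides from a family not pooled, miR-30a-5p and miR-30d-5p had lower ratios, 0.203 and 0.353, and miR-30c-5p had 0.439.

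Families also differed in how alike their members were. The miR-26 guides had ratios of 0.480 and 0.439, and miR-26a-5p made up 73.4% of its pool in TAMs and 71.7% in SMs. The miR-29 guides ran from 0.187 for miR-29b-3p to 0.611 for miR-29a-3p. The miR-130/miR-301 guides ran from 0.425 for miR-301a-3p to 6.56 for miR-130a-3p, which made up 52.7% of its pool in TAMs and 8.17% in SMs. The miR-148/miR-152 guides, from 0.332 to 0.959, were less alike than the miR-26 guides and more alike than the miR-130/miR-301 guides. Of the Dnmt-directed guides, which are those of miR-148/miR-152 and miR-29, 3 of 6 were lower in TAMs by 2-fold or more, and 0 were higher, beside the 32.6% and 24.2% over all miRNAs given above. The 3 were miR-148a-3p, miR-29b-3p and miR-29c-3p. A copy of miR-29b-3p lies close to miR-29c-3p on chr1, starting at 195037091 and 195037600, so these 3 may not be independent. The miR-29 pool, at 0.560, was not past 2-fold, so the count says nothing particular about these guides.

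**Figure D5:**
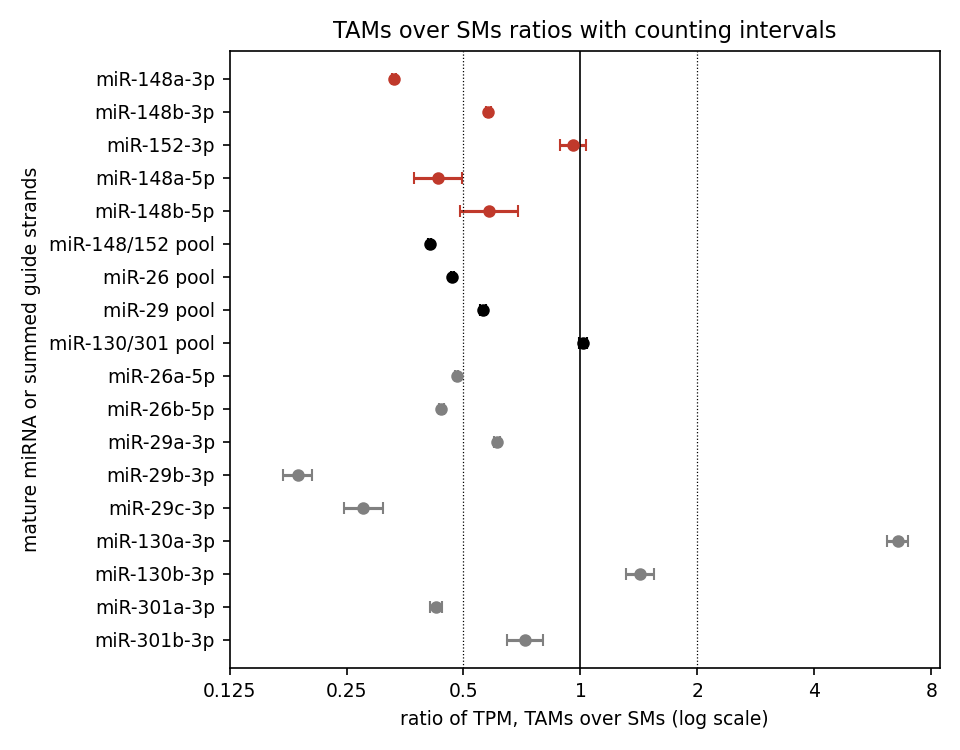
Ratio of TPM in TAMs over SMs on a log axis for 5 miR-148/miR-152 strands (red), the summed guides of 4 families (black) and the guides of the 3 comparison families (grey), 1 library per group; bars are exact 95% counting intervals, the solid line marks 1 and the dotted lines 2-fold. The miR-148/miR-152 pool lies at 0.409 and the miR-130/miR-301 pool at 1.02.

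By level in both libraries, on log2(TPM + 1), the miRNAs nearest to miR-148a-3p were miR-26b-5p, at a distance of 0.33, miR-30a-5p at 0.56 and miR-30d-5p at 0.64. Their TAMs over SMs ratios were 0.439, 0.203 and 0.353, in that order, all lower in TAMs by 2-fold or more. The neighbours were picked by their levels in both libraries, so a like ratio follows in part from that choice. Of the 264 miRNAs of at least 10 TPM, 43 had a lower ratio than miR-148a-3p. They include miR-30a-5p, which is outside the families pooled above. Those nearest to miR-148b-3p were let-7g-5p at 0.14, miR-30c-5p at 0.39 and miR-29a-3p at 0.42. Those nearest to miR-152-3p were miR-511-3p at 0.22, miR-1943-5p at 0.23 and miR-181a-1-3p at 0.32. The distance rests on 2 libraries only and describes similar levels.

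miRNAs known as markers of cell types also differed between the libraries. Of the 4 miRNAs of the myeloid list, ones that macrophages express, all were lower in TAMs by 2-fold or more. Their summed level was 7752 TPM against 34561 TPM. Most of it was miR-142-5p, at 5729 TPM in TAMs against 21578 TPM in SMs. That miRNA is carried by leukocytes at large, so the sum is not specific to myeloid cells. Of 3 lymphocyte miRNAs, among them miR-342-3p, 2 were lower, with 1169 TPM against 4000 TPM in sum. All 4 of the red blood cell list were lower, with 1376 TPM against 6022 TPM. That sum was mostly miR-486-5p, at 1343 TPM against 5355 TPM, and the other entries had lower ratios than its 0.251. Red blood cells of the tumor digest had been lysed before the CD11b beads were applied, and whether the same was done for SMs was not given in the sources used here. All 7 epithelial miRNAs, led by miR-141-3p, were higher, with 1897 TPM against 283.9 TPM. Of 5 stromal miRNAs 2 were higher and 1 did not reach 10 TPM, with 2617 TPM against 2452 TPM in sum, mostly miR-143-3p. In each list but the epithelial one, some entries are the 5p and 3p arms of the same hairpin. The counts in those lists are therefore not counts of independent markers. The epithelial list holds several members of the miR-200 family, so its count need not be one of independent markers either. No marker of these lists was at 0 in either library, and the lowest, miR-205-5p of the epithelial list, had 1 count in SMs. The lower level of miR-148a-3p and miR-148b-3p in TAMs thus stood beside lower sums of the myeloid, lymphocyte and red blood cell lists and a higher sum of the epithelial list. The part of these cells in it was not tested.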

How the data were processed

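The authors matched small RNA reads of TAMs and SMs, 1 library each, to known mouse mature miRNAs and deposited read counts per miRNA. Bowtie2 is named in the submitters' processing notes. Its settings, the miRBase release and the genome build were not given in the sources used here. The deposited TPM is the count scaled to a fixed total per library, without correction for length. The authors' ratios, chi-square p-values and marks were not used. The table reached this work with 2 lines emptied, which were not analysed here. Members and lists were chosen with earlier results of these data known.

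Ratios of TPM carry exact conditional binomial 95% intervals, and shares carry Clopper-Pearson intervals (scipy 1.17.1 and pandas 2.3.3 in Python 3.11.15, with numpy 2.4.6; plots by matplotlib 3.10.9). All are counting error only. Differences of 2-fold or more were counted on log2(TPM + 1) where either library had 10 TPM or more. The calculations were tested on simulated data. Named miRNAs are all members, the guides of 3 comparison families, the 3 miRNAs nearest to each guide, and the most abundant of each of 5 marker lists. miR-205-5p was named after its values were seen. Alternatives were TMM factors (edgeR 4.0.16), size factors (DESeq2 1.42.0, R 4.3.3), other totals, pseudocounts, filters and thresholds. Sequences are from RefSeq (GRCm38.p6), and 3′ UTRs and gene positions from GENCODE M21 (GRCm38).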

Additional observations from a re-analysis of the deposited data

How the results depend on the processing

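No paired analysis was possible because there was a single library of each kind, and for the same reason no library could be left out. Each scaling multiplies all ratios by 1 factor, 1.06 with TMM and 1.05 with DESeq2 size factors. It was 1.19 with the sum of the listed counts and 1.41 with that sum less the 10 most abundant of either library, 13 miRNAs in all. In that order the ratio was 0.434, 0.429, 0.487 and 0.577 for the miR-148/miR-152 pool, 0.352, 0.348, 0.395 and 0.467 for miR-148a-3p, 0.615, 0.607, 0.690 and 0.816 for miR-148b-3p, and 1.02, 1.01, 1.14 and 1.35 for miR-152-3p. For the comparison pools it was 0.497, 0.491, 0.558 and 0.660 (miR-26), 0.594, 0.587, 0.667 and 0.789 (miR-29), and 1.08, 1.07, 1.21 and 1.43 (miR-130/miR-301). Pseudocounts of 1 and 10 TPM and the passenger strands left the pool's ratio within its counting interval, and leaving out miR-148a-3p gave 0.591. Of 18 alternative values for the passenger strands, 6 left the counting interval. Relative to the median of all miRNAs of at least 10 TPM, miR-148a-3p stood between −1.24 and −1.23 on the log2 scale under all scalings.

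With all 6 arms as the denominator miR-148a-3p made up 56.3% in TAMs and 69.6% in SMs. Of the 2 minor guides alone, miR-148b-3p made up 94.9% in TAMs and 96.9% in SMs and miR-152-3p 5.11% and 3.15%. The miRNAs past 2-fold numbered 64 higher and 86 lower in TAMs and became 34 and 48 at 100 TPM, 102 and 115 without a minimum, 42 and 22 at 4-fold, and 87 and 53 without the 10 most abundant. At 4-fold 65.6% of them were higher, and 0 members differed by as much. Of the members, miR-148a-3p was lower by 2-fold or more under each scaling, filter and pseudocount tried. miR-148a-5p was not with the sum of the listed counts, without the 10 most abundant, at a pseudocount of 10 TPM, or at a minimum of 100 TPM, which it does not reach. Depth limits mir-152, whose passenger had 3 counts in all.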
